A study of Mus musculus and Homo sapiens with 10 samples.

Results

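The replication-dependent histone gene clusters are described here through the ChIP-seq peaks called within them. A peak belonged to them if its centre lay in mm9 chr13:21200000-24000000 or chr3:96000000-96150000 (NIH3T3 lists), or in hg19 chr6:26000000-27900000 or chr1:149750000-149900000 (human lists). These regions held 779 of the 208002 peaks in the 10 lists, 551 of them in NIH3T3 and 228 in the human lines. The regions were chosen from the positions of UBF peaks, so the number and crowding of UBF peaks in them, and the share of any other list that meets UBF, are given as a description only. UBF (upstream binding factor, both isoforms) is a partner of RNA polymerase I (Pol I). NIH3T3 is an immortalized mouse fibroblast line, profiled for UBF, Pol I, RNA polymerase II (Pol II), H3K4me3, H3K9ac, hyperacetylated H4 and H3K9me3. HMEC cells are human mammary epithelial cells made immortal with TERT, profiled for UBF and Pol I. HMLER was derived from HMEC, expresses SV40 large-T, TERT and an oncogenic HRAS allele (HRASV12G), and was profiled for UBF. All 3 lines were growing exponentially, and no treatment is given. Pol I was precipitated through its largest subunit and Pol II through the phosphorylated repeat of its C-terminal domain. Each antibody and line has 1 list from 1 sample, and whether replicates were pooled in it is not given. The depth of each list is unknown, and no difference below was tested. The intervals in brackets are exact (Clopper-Pearson) 95% intervals over peaks. They cover counting error only, and neighbouring peaks are not independent.

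Replication-dependent histone genes encode the core histones H2A, H2B, H3 and H4 and the linker histone H1 that package newly copied DNA. They lie in clusters and have no introns. Pol II transcribes them mainly in S phase, at a nuclear compartment called the histone locus body. Their mRNAs end in a stem-loop in place of a poly(A) tail. UBF is known for binding the ribosomal RNA genes, which Pol I transcribes in the nucleolus. H3K4me3, H3K9ac and acetylated H4 mark active promoters, and H3K9me3 marks silent chromatin.

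The peaks were called on mm9 and hg19, for which no annotation was used, so no peak was assigned to a gene. The order of the genes was read from the RefSeq table of another mouse build, GRCm38.p6. There the histone genes of chromosome 13 fell into 4 blocks separated by at least 3 other genes. The first block ran from H2bc13 to H4bc24 with 19 genes, the next from H2ac12 to H2bc11 with 5, the one after from H4c8 to H1f1 with 30, and the last held H2bc1 and H2ac1. Transfer RNA genes made up 31 of the 39 genes between the blocks of 19 and of 5. The 147 genes between the blocks of 5 and of 30 included 75 Vmn1r genes, which encode vomeronasal receptors, and 46 transfer RNA genes. Chromosome 3 held 1 block of 10 histone genes, from H2ac21 to H2bc18. The 66 histone genes, 64 of them not pseudogenes, comprised 6 of H1, 19 of H2A, 17 of H2B, 12 of H3 and 12 of H4. Several of these genes are near-identical copies, so reads in them may be hard to place and peaks over such copies are uncertain.

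RefSeq promoter windows of 300 bases (GRCm38.p6) were found for 59 of the 66 genes, as 60 windows. They show the kind of DNA that lies at these genes' starts. 1 member of each of 4 classes is printed, and capitals mark the motifs found on either strand. These are the letters TATAAA of the TATA box, CCAAT of the CCAAT box, TTTGCAT from the octamer of H2B promoters, and AAACACA of the H1 box. The letters were matched at any position in the window, so a match need not be a working box. TATAAA starts at base 114 of the H4c9 window, and in that of H1f3 also at bases 98 and 106 on the minus strand. H2ac12 (H2A) is at chr13:22035594-22035893 on the minus strand, and its window shares 277 bases with that of H2bc12 (H2B) on the other strand. H4c9 (H4) is at chr13:22041313-22041612 on the minus strand. H3c8 (H3) is at chr13:23535168-23535467 on the plus strand, and H1f3 (H1) at chr13:23554782-23555081 on the plus strand. These positions are in GRCm38.p6 and cannot be set against the mm9 peak positions.
H2ac12: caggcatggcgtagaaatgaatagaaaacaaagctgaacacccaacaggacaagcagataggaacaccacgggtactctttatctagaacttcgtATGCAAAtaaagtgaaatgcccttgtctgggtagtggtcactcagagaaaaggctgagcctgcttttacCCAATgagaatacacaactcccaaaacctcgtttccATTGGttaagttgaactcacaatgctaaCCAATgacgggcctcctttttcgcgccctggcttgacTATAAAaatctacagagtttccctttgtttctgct
H4c9: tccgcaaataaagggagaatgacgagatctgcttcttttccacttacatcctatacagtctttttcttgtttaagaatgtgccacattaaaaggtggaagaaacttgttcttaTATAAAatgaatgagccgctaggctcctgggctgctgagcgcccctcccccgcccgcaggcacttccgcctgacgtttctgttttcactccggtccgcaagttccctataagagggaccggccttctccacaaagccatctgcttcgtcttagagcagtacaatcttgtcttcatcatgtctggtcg
H3c8: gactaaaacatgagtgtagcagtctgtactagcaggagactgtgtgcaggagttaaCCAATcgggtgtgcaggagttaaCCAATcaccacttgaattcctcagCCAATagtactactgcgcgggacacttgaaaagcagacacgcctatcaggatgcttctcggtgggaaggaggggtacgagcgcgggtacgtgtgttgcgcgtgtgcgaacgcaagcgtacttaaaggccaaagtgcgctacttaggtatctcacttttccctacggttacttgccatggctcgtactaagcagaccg
H1f3: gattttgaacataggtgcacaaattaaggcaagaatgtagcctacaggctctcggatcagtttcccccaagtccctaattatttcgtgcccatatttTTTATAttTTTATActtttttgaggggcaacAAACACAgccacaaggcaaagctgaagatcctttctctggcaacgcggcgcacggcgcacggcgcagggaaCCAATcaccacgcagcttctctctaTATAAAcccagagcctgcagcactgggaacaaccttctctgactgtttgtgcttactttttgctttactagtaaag
CCAAT was found in 52 of the 60 histone windows (86.7%), against 37.4% of all 32851 promoter windows. It stood in every window of H1, H2A, H2B and H3 and in 3 of 11 of H4. TATAAA was found in 34 of 60 (56.7%), against 13.6% of all windows. TTTGCAT was found in 14 of 60 (23.3%), 13 of them of H2A or H2B, against 4.63% of all windows. AAACACA was found in 9 of 60 (15.0%), among them 5 of the 6 H1 windows, against 7.18% of all. CGCG was found in 38 of 60 (63.3%), against 38.0%. No matches of the first 4 motifs overlapped each other in a histone window. In 10 pairs of genes, each an H2A and an H2B, the windows overlapped on opposite strands by 220 to 279 bases, so these pairs were counted on shared DNA.

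In NIH3T3 the chromosome 13 region held 49 UBF peaks in 2.8 Mb, or 17.5 per Mb, against 1.43 per Mb on the rest of that chromosome. The chromosome 3 region held 6 in 0.15 Mb, or 40.0 per Mb against 1.74. Joining UBF peaks whose centres lay within 100 kb of the next gave 3 sub-clusters and 3 single peaks. The first sub-cluster, chr13:21808222-22135578, held 19 UBF peaks in 327 kb. The second, chr13:23537610-23854523, held 27 in 317 kb. The sub-cluster of chromosome 3, chr3:96023552-96074372, held 6 in 50.8 kb. The single peaks were chr13:21271921-21273055, chr13:21584504-21585199 and chr13:22972175-22972595. A limit of 50 kb divided the chromosome 13 sub-clusters further, into groups of 13, 2, 4, 15 and 11 peaks, and gave 6 sub-clusters in all. The densest of these, chr13:22126694-22135578, held 4 UBF peaks in 8.88 kb, and 47.9% of its bases lay under UBF.

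**Figure D1:**
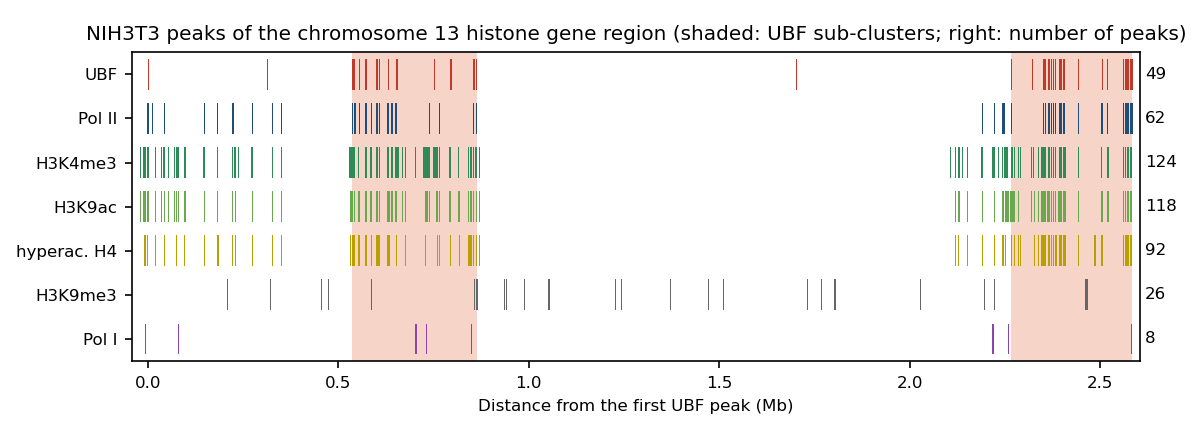
Peaks of the 7 NIH3T3 lists in the chromosome 13 region, by distance in Mb from the first UBF peak; each bar is 1 peak (narrow peaks are drawn wider to be visible), shading marks the 2 UBF sub-clusters, and the number of peaks per list is at the right. UBF and Pol II bars crowd into the shaded intervals, while H3K9me3 bars are spread over the region, at 9.31 per Mb in the sub-clusters and 9.28 per Mb outside them.

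The sub-clusters were also dense in Pol II and active marks. They were drawn around UBF peaks, and 50.5% of the whole UBF list met Pol II and 49.3% met H3K4me3. A higher density of these lists in the sub-clusters is therefore in part built in. In the chromosome 13 sub-clusters Pol II peaks stood at 74.5 per Mb (48 peaks), against 6.49 per Mb in the rest of the region (14 peaks) and 6.83 per Mb on the rest of the chromosome. H3K4me3 peaks stood at 126 per Mb (81 peaks), against 19.9 per Mb elsewhere in the region (43 peaks) and 8.86 per Mb on the rest of the chromosome. Pol II outside the sub-clusters was thus close to the level of the chromosome, while H3K4me3 there was above it. The chromosome 3 sub-cluster held 9 Pol II, 8 H3K4me3, 8 H3K9ac and 11 hyperacetylated H4 peaks in its 50.8 kb, and H3K9ac covered 42.6% of its bases.

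Nearly every UBF peak of the clusters lay on an active promoter mark. Of 55 UBF peaks, 50 met a Pol II peak by at least 1 bp (90.9%, 80.0 to 97.0), against 210 of 436 (48.2%, 43.4 to 53.0) on the same chromosomes outside and 50.5% of the whole UBF list. H3K4me3 was met by 53 (96.4%), H3K9ac by 51 (92.7%) and hyperacetylated H4 by 50 (90.9%), against 46.6%, 47.0% and 47.5% outside. The full active set, Pol II with the 3 active marks, was met by 49 (89.1%, 77.8 to 95.9), against 199 of 436 outside (45.6%, 40.9 to 50.4) and 47.5% of the whole list. By chromosome the full set was met by all 6 UBF peaks of the chromosome 3 region and by 43 of 49 of chromosome 13. The intervals inside and outside did not overlap for any of these 5 pooled shares. The order turned for the full set where only the wider 50% of each list was kept, a setting that removes the narrower mark peaks too: it was met by 16 of 29 UBF peaks inside (55.2%) and 123 of 187 outside (65.8%). For Pol II alone that setting gave 29 of 29 inside and 131 of 187 outside (70.1%).

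The peaks that carried none of the active lists were rare in the clusters. UBF peaks that met none of the Pol II, H3K4me3, H3K9ac, hyperacetylated H4 and H3K9me3 lists numbered 2 of 55 (3.64%, 0.443 to 12.5), against 216 of 436 outside (49.5%, 44.8 to 54.3). Both were single peaks, chr13:21584504-21585199 of 695 bp and chr13:22972175-22972595 of 420 bp, and their nearest UBF neighbours were 224 and 566 kb away. The remaining incomplete peaks lay within the sub-clusters. The peaks chr13:22022647-22023432 and chr13:23591475-23592390 met H3K4me3 only, chr13:22066558-22067340 met the 3 marks but not Pol II, and chr13:23789649-23790557 lacked hyperacetylated H4. These were spaced peaks, with the nearest UBF centre at 43.9, 31.2, 43.9 and 14.1 kb.

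**Figure D2:**
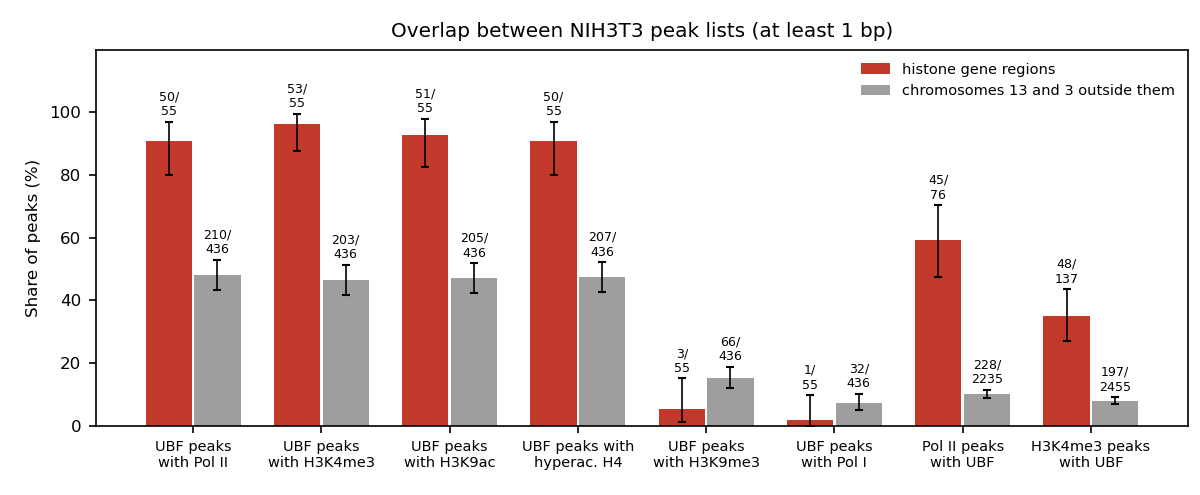
Share of peaks (%) of 1 NIH3T3 list that meet a peak of another by at least 1 bp, inside the histone gene regions (red) and on the same chromosomes outside (grey); error bars are exact 95% binomial intervals over peaks, and counts stand above the bars. Inside, 50 of 55 UBF peaks met Pol II and 45 of 76 Pol II peaks met UBF, against 210 of 436 and 228 of 2235 outside.

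Crowding and completeness went together. All 43 UBF peaks with another UBF centre within 10 kb met Pol II and all 3 active marks (100%, 91.8 to 100), against 6 of the 12 more isolated ones (50%, 21.1 to 78.9). Outside the clusters the same division gave 19 of 24 (79.2%, 57.8 to 92.9) and 180 of 412 (43.7%, 38.8 to 48.6). The interval of the 12 isolated cluster peaks is wide. It includes the share of isolated peaks elsewhere, but so few peaks cannot show that the shares are alike. The distance of 10 kb was chosen after the positions were seen. UBF peaks outside are mostly isolated, and the peaks inside are mostly crowded, so location and crowding cannot be told apart by these counts.

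Cluster UBF peaks had ordinary widths. Their median width was 986 bp, against 981 bp for the whole list. Narrow peaks outside the clusters seldom met the full active set, at 19 of 122 in the narrowest 25% of the list, up to 832 bp (15.6%, 9.64 to 23.2). In the clusters 11 of 15 peaks this narrow did (73.3%, 44.9 to 92.2). In the next 25%, up to 981 bp, the counts were 9 of 11 inside (81.8%) and 39 of 128 outside (30.5%). Among peaks wider than the list's median they were 29 of 29 inside (100%, 88.1 to 100) and 141 of 186 outside (75.8%, 69.0 to 81.8). The share inside was therefore above that outside in each width group. In the widest group it was at its ceiling of 100%, against 75.8% outside. The sizes of the differences were therefore not compared between groups.

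The 10 widest cluster peaks, all with Pol II and the 3 active marks, were drawn from each sub-cluster. The widest, chr3:96042051-96044614, measured 2563 bp and ranked 41 in the list of 3704. The next, chr3:96072223-96074372, measured 2149 bp and ranked 88. On chromosome 13 the widest were chr13:23662274-23664023 of 1749 bp and chr13:23775151-23776851 of 1700 bp. The peaks chr3:96023552-96025141 and chr3:96048998-96050583 measured 1589 and 1585 bp. The last 4 measured 1506 to 1556 bp and were chr13:21901387-21902943, chr13:21878441-21879976, chr13:21924885-21926412 and chr13:23665389-23666895. Chromosome 3 thus gave 4 of the 10 from only 6 peaks, and its median UBF width was 1587 bp, against 967 bp in the chromosome 13 region and 960 bp on the rest of chromosome 3. The other peaks of chromosome 3 were chr3:96050651-96051592 of 941 bp and chr3:96066534-96067520 of 986 bp.

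**Figure D3:**
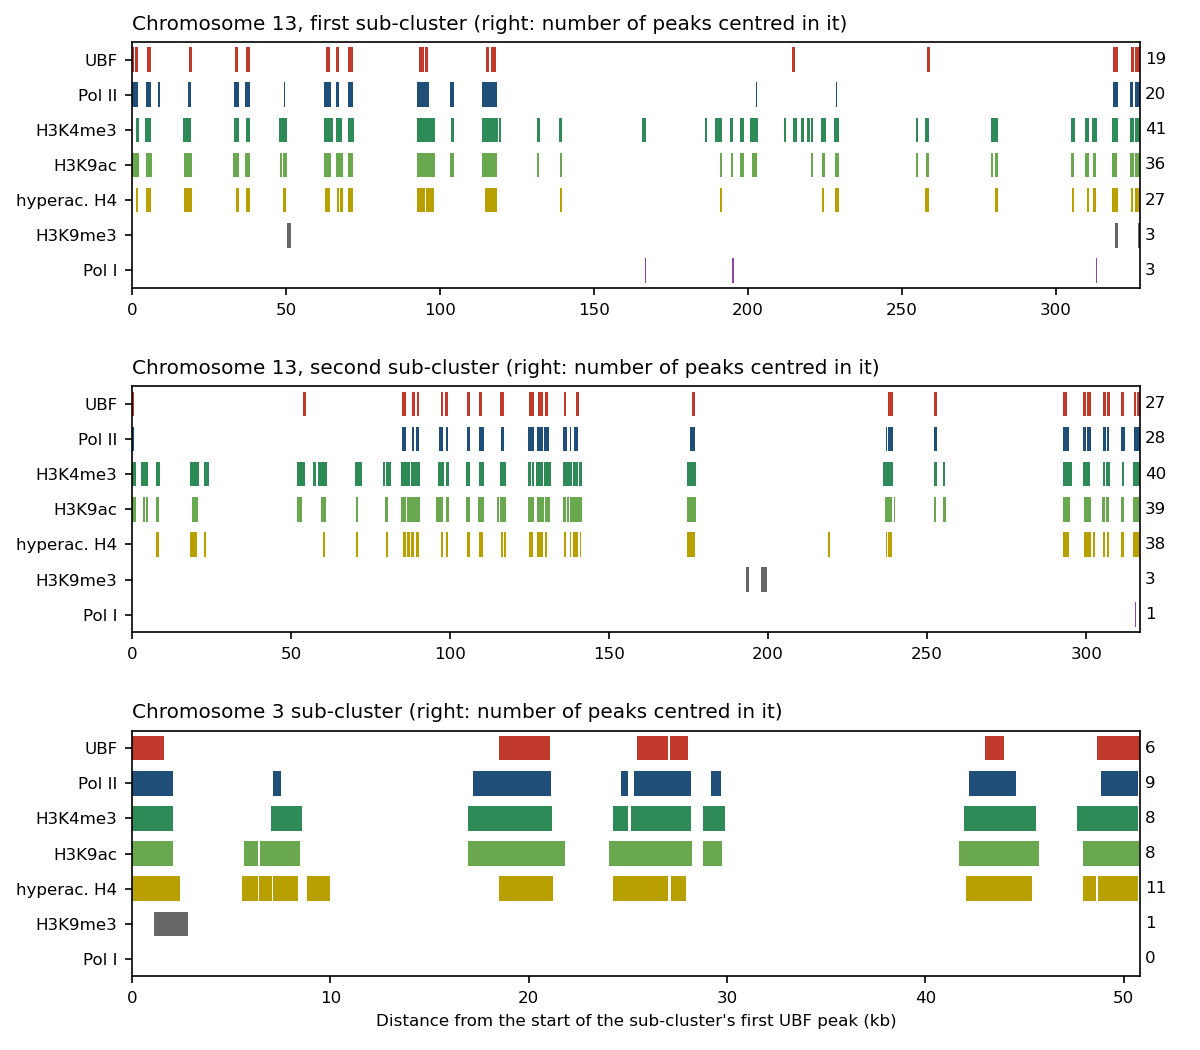
Peaks of the 7 NIH3T3 lists centred in each of the 3 UBF sub-clusters, by distance in kb from the start of the first UBF peak; each bar is 1 peak (the narrowest drawn wider) and the number of peaks per list is at the right. Pol II bars follow the UBF bars closely, with 20, 28 and 9 Pol II peaks beside 19, 27 and 6 UBF peaks, whereas H3K4me3 also fills parts of the chromosome 13 sub-clusters without UBF.

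Read the other way, UBF lay on most Pol II peaks of the clusters and on few H3K4me3 peaks without Pol II. Of 76 Pol II peaks in the clusters, 45 met UBF (59.2%, 47.3 to 70.4), against 228 of 2235 outside (10.2%, 8.98 to 11.5) and 6.60% of the whole Pol II list. Within the sub-clusters it was 44 of 57 (77.2%, 64.2 to 87.3), and in the rest of the regions 1 of 19 (5.26%, 0.133 to 26.0). The regions were chosen from UBF positions and hold UBF 12.2 (chromosome 13) and 23.0 (chromosome 3) times as densely as the rest of their chromosomes. The sub-clusters were drawn around UBF peaks. Higher shares with UBF therefore follow in part from these choices, here and in the next values for H3K4me3, and nothing is read from the contrasts. Of 137 H3K4me3 peaks 48 met UBF (35.0%, 27.1 to 43.6), against 197 of 2455 outside (8.02%, 6.98 to 9.17) and 6.41% of the whole H3K4me3 list.

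Pol II was present on 67 of 137 H3K4me3 peaks of the clusters (48.9%, 40.3 to 57.6), against 1229 of 2455 outside (50.1%, 48.1 to 52.1). By chromosome it was 56 of 124 on chromosome 13 (45.2%, 36.2 to 54.3) against 49.8% outside, and 11 of 13 on chromosome 3 (84.6%, 54.6 to 98.1) against 50.2% (47.6 to 52.9). Of those 67, 45 met UBF (67.2%), against 194 of 1229 outside (15.8%). Of the 70 H3K4me3 peaks without Pol II, 3 met UBF (4.29%), against 3 of 1226 outside (0.245%). In the sub-clusters 43 of 51 H3K4me3 peaks with Pol II met UBF (84.3%). The other 35 of the 38 H3K4me3 peaks there that lacked Pol II also lacked UBF. Their median width was 1011 bp, against 1831 bp for peaks with both, and outside the regions these widths were 1029 and 3130.5 bp. H3K4me3 without Pol II or UBF made up 35 of 89 peaks inside the sub-clusters (39.3%). It made up 32 of 48 between them (66.7%) and 1223 of 2455 outside the regions (49.8%). The sub-clusters were drawn around UBF peaks, so a lower share without UBF inside them is in part built in. Nothing is read from the order of these 3 shares.

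Active histone marks that met UBF were narrower in the clusters than outside. Both in the clusters and outside they were wider than the same marks without UBF. A wider peak meets another list by 1 bp more readily, so nothing is read from that order. H3K4me3 peaks that met UBF had a median width of 1839 bp in the clusters and 3081 bp outside, and hyperacetylated H4 peaks that met UBF had 1190 and 2130 bp. Within the clusters H3K4me3 peaks without UBF had a median of 1324 bp, and H3K9ac peaks had 1921 bp with UBF and 889 bp without it. Hyperacetylated H4 peaks without UBF had 722 bp. Outside, the medians without UBF were 1394.5 bp for H3K4me3 and 972 bp for hyperacetylated H4. H3K9ac peaks outside had 2653.5 bp with UBF and 1321 bp without it. A UBF peak lay wholly within 1 H3K4me3 peak in 33 of 53 cases inside (62.3%) and in 194 of 203 outside (95.6%). For hyperacetylated H4 it was 13 of 50 (26.0%) and 169 of 207 (81.6%). Pol II went the other way. UBF lay wholly within 1 Pol II peak in 24 of 50 cases inside (48.0%) and 63 of 210 outside (30.0%), and Pol II peaks with UBF had median widths of 1441 and 1218.5 bp. The centres of UBF and of the nearest overlapping Pol II peak lay a median of 152.5 bp apart inside and 173.25 bp outside.

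Neighbouring UBF peaks of the clusters were close together, which the choice of regions partly fixes. The median distance between neighbouring centres was 6.17 kb inside, over 53 pairs, and 344 kb outside, over 432 pairs. In 13 of the 53 pairs (24.5%, 13.8 to 38.3) the edges were under 1 kb apart, against 4 of 432 outside (0.926%, 0.253 to 2.35). The edge gaps of these close pairs ran from 7 to 650 bp, with a median of 475 bp. The closest was the pair chr13:23837856-23838559 and chr13:23838566-23839272, separated by 7 bp, followed by chr13:22126694-22127580 and chr13:22127602-22128463, separated by 22 bp. A single Pol II peak lay over both members in 7 of the 13 pairs, a single H3K9ac peak in 9, H3K4me3 in 6 and hyperacetylated H4 in 3. Whether such a pair is 1 site divided by the peak caller was not tested, since the lists hold no signal. The limit of 1 kb was set after the positions were seen.

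**Figure D4:**
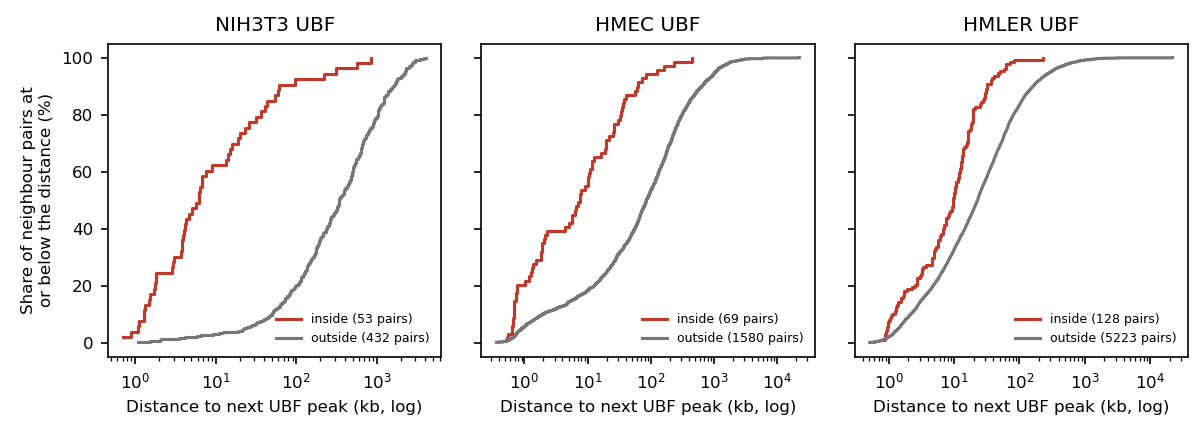
Cumulative share (%) of neighbouring UBF peaks by the distance between their centres (kb, log axis), inside the histone gene regions (red) and on the same chromosomes outside (grey), in each UBF list. Inside, the median distance was 6.17 kb in NIH3T3, 7.65 kb in HMEC and 9.74 kb in HMLER, against 344, 85.8 and 23.0 kb outside; the regions were chosen from UBF positions.

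UBF and H3K9me3 met at 3 places in the clusters. Of 55 UBF peaks 3 met H3K9me3 (5.45%, 1.14 to 15.1), against 66 of 436 outside (15.1%, 11.9 to 18.9) and 16.2% of the whole list, and the intervals overlapped. By chromosome the gap was smaller, with 2 of 49 (4.08%) against 12 of 164 (7.32%) on chromosome 13 and 1 of 6 (16.7%) against 54 of 272 (19.9%) on chromosome 3. The 3 were chr13:22127602-22128463, chr13:22134110-22135578 and chr3:96023552-96025141, and each also met Pol II and the 3 active marks. The peak of chromosome 3 is the first of its sub-cluster, and chr13:22134110-22135578 is the last of its own. Over the chromosome 13 region H3K9me3 stood at 9.29 peaks per Mb, close to the 8.47 per Mb of the rest of the chromosome. The longest stretch of that region with no peak of Pol II or an active mark was chr13:22144145-23376537, 1.23 Mb long. It held 14 H3K9me3 peaks, or 11.4 per Mb, no Pol I peak and 1 UBF peak, the unmarked chr13:22972175-22972595. On chromosome 3 the region held 13 H3K9me3 peaks in 0.15 Mb, or 86.7 per Mb, against 8.73 per Mb on the rest of that chromosome. Of these 13, 12 lay outside the UBF sub-cluster, where they covered 17.8% of the bases, against 3.32% inside it.

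Pol I, the polymerase that UBF serves on ribosomal RNA genes, met UBF at 1 place in the NIH3T3 clusters. The clusters held 8 Pol I peaks, all on chromosome 13, of 124 to 426 bp. They made up 8 of the 42 Pol I peaks of that chromosome, at 2.86 per Mb against 0.297 per Mb outside. Of these, chr13:23852923-23853047, 124 bp wide, was the only one to meet UBF, at chr13:23852482-23853309. So 1 of 8 Pol I peaks met UBF (12.5%, 0.316 to 52.7), against 10 of 34 on the rest of chromosome 13 (29.4%, 15.1 to 47.5) and 20.9% of the whole Pol I list. From the UBF side it was 1 of 55 (1.82%, 0.0460 to 9.72), against 32 of 436 outside (7.34%, 5.07 to 10.2) and 7.32% of the whole UBF list. The intervals overlapped in both directions.

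Each of the 8 Pol I peaks met H3K4me3 (100%, 63.1 to 100), against 18 of 34 on the rest of chromosome 13 (52.9%, 35.1 to 70.2). The whole Pol I list had 68.9%, within the interval of the clusters. The peak with UBF was the 1 that met Pol II (12.5%, 0.316 to 52.7). On the rest of chromosome 13 it was 8 of 34 (23.5%, 10.7 to 41.2), and these intervals overlapped. The whole list had 58.3% with Pol II (55.7 to 60.9), above the interval of the clusters. H3K9ac was met by 4 of 8, against 16 of 34 (47.1%) and 68.8% of the whole list. Hyperacetylated H4 was met by 3 of 8 (37.5%), against 17 of 34 and 71.3% of the whole list. H3K9me3 was met by 0 of 8, an interval of up to 36.9%, against 1 of 34 (2.94%) and 16.7% of the whole list. The peaks chr13:21351556-21351775, chr13:21974712-21975138, chr13:23488907-23489039 and chr13:23529871-23530013 met H3K4me3 alone. The peaks chr13:21264629-21264816 and chr13:22121133-22121263 met H3K4me3, H3K9ac and hyperacetylated H4, and chr13:22003223-22003380 met H3K4me3 and H3K9ac. The distance to the nearest UBF centre had a median of 13.9 kb. The widest, chr13:21974712-21975138, was 48.1 kb from UBF although it lay within the first sub-cluster.

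In the human lines the regions held 71 UBF peaks in HMEC and 130 in HMLER. HMEC UBF stood at 31.1 per Mb on chromosome 6 (59 peaks) and 80.0 per Mb on chromosome 1 (12 peaks), against 3.17 and 4.21 per Mb outside. HMLER UBF, from a list more than 3 times as long, stood at 64.2 and 53.3 per Mb, against 9.31 and 14.7. HMEC UBF peaks joined at 100 kb gave 6 sub-clusters and no single peak, on chromosome 6 at chr6:26021723-26285673 (25 peaks), chr6:26521872-26538791 (2), chr6:26701209-26799350 (5), chr6:26924696-27206686 (10) and chr6:27655170-27861871 (17), and on chromosome 1 at chr1:149783308-149859558 (12). The HMEC list was taken to draw them because HMLER peaks at 100 kb joined into only 3.

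**Figure D5:**
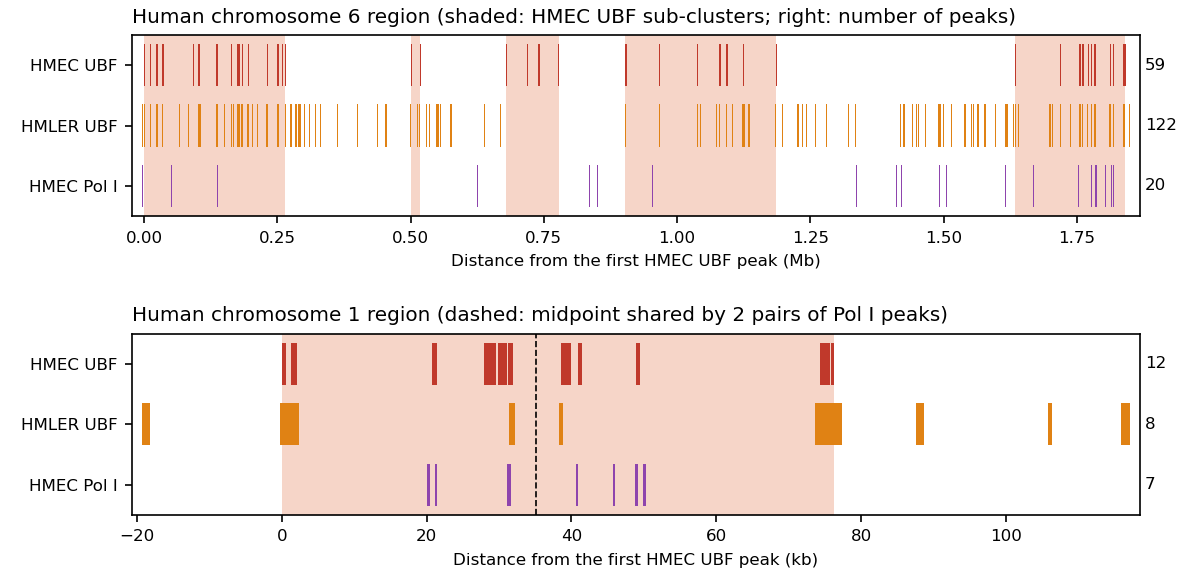
UBF and Pol I peaks of the human regions by distance from the first HMEC UBF peak, in Mb on chromosome 6 (top) and kb on chromosome 1 (bottom); each bar is 1 peak (narrow ones drawn wider), shading marks the 6 HMEC UBF sub-clusters, and the number of peaks is at the right. In the top panel 1 shaded interval holds 5 HMEC and no HMLER peaks, and the dashed line on chromosome 1 is the midpoint about which 2 pairs of Pol I peaks are mirrored.

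Most HMEC UBF peaks of the clusters were also in HMLER. The regions were chosen from UBF positions, so a higher share inside than outside is in part built in. HMLER UBF covered 7.14% (chromosome 6) and 7.90% (chromosome 1) of the bases inside, against 1.09% and 1.71% outside. Of 71 HMEC UBF peaks 58 met HMLER UBF (81.7%, 70.7 to 89.9). Outside on the same chromosomes it was 906 of 1584 (57.2%, 54.7 to 59.6), and in the whole HMEC list 56.8%. With only the wider 50% of each list the order turned, at 29 of 52 inside (55.8%) and 491 of 793 outside (61.9%). In the full lists chromosome 6 had 52 of 59 (88.1%, 77.1 to 95.1) and chromosome 1 had 6 of 12 (50%, 21.1 to 78.9), close to the 58.4% of the rest of that chromosome. By sub-cluster the counts on chromosome 6 were 23 of 25, 2 of 2, 0 of 5, 10 of 10 and 17 of 17. The sub-cluster at chr6:26701209-26799350 was thus empty in HMLER. Its peaks were chr6:26701209-26701762, chr6:26739261-26739949, chr6:26760868-26761381, chr6:26761558-26762156 and chr6:26798551-26799350, of 513 to 799 bp, and the nearest HMLER centres were 11.5 to 109 kb away. The 2 other chromosome 6 peaks missing from HMLER were the narrow chr6:26113584-26113885 of 301 bp and chr6:26279603-26279986 of 383 bp.

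From the HMLER side 47 of 130 peaks met HMEC UBF (36.2%, 27.9 to 45.0), against 806 of 5227 outside (15.4%, 14.5 to 16.4), where HMEC UBF is sparser, and 14.6% of the whole HMLER list. With at least 50% of the HMLER peak covered it was 26 of 130 inside (20%) and 2.93% outside. In the HMEC sub-clusters it was 44 of 66 (66.7%, 54.0 to 77.8). The sub-clusters hold all 71 HMEC UBF peaks by construction, so HMLER peaks between them were not set against this share. HMLER thus had UBF in 5 of the 6 HMEC sub-clusters, and 60 further peaks between those of chromosome 6. Depth is unknown, so no limit of detection can be given for a peak absent from a list.

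HMLER peaks were wider. Where the lines shared a peak in the clusters, the HMLER peak was a median of 2.39 times as wide as the HMEC peak, against 3.40 times outside, and it held the HMEC peak entirely in 46 of 58 cases (79.3%), against 788 of 906 outside (87.0%). In the clusters the median width of HMLER peaks was 1168 bp with HMEC UBF and 963 bp without it, against 1765 and 873 bp outside. The widest HMLER peaks were chr1:149856919-149860646 of 3727 bp, chr6:27832819-27835580 of 2761 bp, chr6:27805309-27808022 of 2713 bp and chr6:27099398-27101958 of 2560 bp. The next 5, of 2041 to 2523 bp, were chr6:26520454-26522977, chr1:149783122-149785629, chr6:26536913-26539129, chr6:26054938-26057021 and chr6:27144102-27146143, and each of these 9 met HMEC UBF. The tenth, chr6:27262932-27264835 of 1903 bp, did not. The widest HMEC UBF peaks were chr1:149811293-149812911 (1618 bp), chr1:149857662-149859030 (1368 bp), chr1:149821920-149823237 (1317 bp) and chr6:27655170-27656358 (1188 bp). The other 6 of the 10 widest, of 706 to 869 bp, were chr6:26055927-26056796, chr1:149784532-149785363, chr6:26798551-26799350, chr6:27777671-27778435, chr6:27861149-27861871 and chr1:149804097-149804803.

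The close spacing of UBF peaks was also seen in the human lists. Edges lay under 1 kb apart in 21 of 69 neighbouring HMEC pairs (30.4%, 19.9 to 42.7), against 9.11% of 1580 pairs outside. In HMLER it was 24 of 128 (18.8%, 12.4 to 26.6), against 10.2% of 5223. In 10 cases 1 HMLER peak lay over 2 or more HMEC peaks, at most 3.

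Pol I and UBF met at several places in the human clusters, where HMEC UBF stood 9.80 (chromosome 6) and 19.0 (chromosome 1) times as densely as outside. The regions were chosen from UBF positions, so a higher share of Pol I with UBF is in part built in. Of 27 HMEC Pol I peaks 7 met HMEC UBF (25.9%, 11.1 to 46.3), against 58 of 1511 outside (3.84%, 2.93 to 4.93) and 2.86% of the whole Pol I list. With centres within 1000 bp the shares were 40.7% inside and 5.89% outside, and with the wider 50% of each list 5 of 10 and 24 of 769 (3.12%). From the UBF side 8 of 71 met Pol I (11.3%, 4.99 to 21.0), against 56 of 1584 outside (3.54%, 2.68 to 4.57) and 2.72% of the whole UBF list. On chromosome 1 it was 5 of 12 UBF peaks (41.7%, 15.2 to 72.3), and on chromosome 6 it was 3 of 59 (5.08%, 1.06 to 14.1), against 2.43% on the rest of chromosome 6. From the Pol I side it was 4 of 7 on chromosome 1 (57.1%, 18.4 to 90.1), against 4.39% outside, and 3 of 20 on chromosome 6 (15.0%, 3.21 to 37.9), against 13 of 486 (2.67%, 1.43 to 4.53). No list of Pol II or histone marks was analysed here for the human lines.

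The UBF peaks that met Pol I on chromosome 1 were chr1:149804097-149804803, chr1:149813777-149814426, chr1:149814535-149815170, chr1:149824171-149824814 and chr1:149832149-149832798, of 635 to 706 bp. Only chr1:149814535-149815170 was also in HMLER. On chromosome 6 they were chr6:26158271-26158925, chr6:27798796-27799424 and chr6:27806343-27806999, all in HMLER. At the last, the Pol I peak chr6:27806503-27806850 had its centre 0.0055 kb from that of UBF. The chromosome 6 sub-cluster chr6:27655170-27861871 held 7 of the 20 Pol I peaks of that region. Among the 10 widest Pol I peaks of the human clusters, 4 lay on chromosome 6, of 290 to 347 bp: chr6:27806503-27806850, chr6:27835190-27835517, chr6:27798532-27798839 and chr6:27357306-27357596. The other 6 lay on chromosome 1. The other UBF peaks of the chromosome 1 region were chr1:149783308-149783879, chr1:149784532-149785363, chr1:149813192-149813656 and chr1:149859194-149859558, with the 3 wide ones named above, and none of these met Pol I.

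The Pol I peaks of chromosome 1 formed mirror images. The peaks chr1:149803375-149803765 and chr1:149833181-149833571 both measured 390 bp, and chr1:149804430-149804801 and chr1:149832145-149832516 both measured 371 bp. Both pairs had exactly the same midpoint, position 149818473. The remaining 3 Pol I peaks, chr1:149814417-149814920 of 503 bp, chr1:149823987-149824204 of 217 bp and chr1:149828996-149829312 of 316 bp, had no mirror image in the list. Reflected about that midpoint, 7 of the 12 HMEC UBF peaks and 4 of the 8 HMLER peaks met a peak of their own list, none of them exactly. Human chromosome 1 is known to carry an inverted duplication of histone genes in this cluster with near-identical copies. Reads of near-identical copies are hard to place, so the peaks of each copy are uncertain, and the part of shared reads in the mirrored peaks, or in the overlap of Pol I with UBF there, was not tested. The 8 HMLER peaks of the region were chr1:149764006-149765158, chr1:149783122-149785629, chr1:149814731-149815463, chr1:149821567-149822166, chr1:149856919-149860646, chr1:149870805-149872042, chr1:149889078-149889675 and chr1:149899130-149900430.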

How the data were processed

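Each of the 10 files deposited by the authors gives chromosome, start and end of called peaks for 1 antibody in 1 line, without score, height or count, per the file headers. Per the submitters' processing notes, CASAVA 1.8.2, BWA and Picard were used with the builds mm9 and hg19. Peak calling, its threshold and pooling of replicates: not given in the sources used here. Coordinates are printed as deposited, and their counting origin is not given there either.

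Members were peaks centred in the 4 regions. Regions, gene lists and members were chosen with earlier results of these data known. Peaks were called shared at 1 bp of overlap and compared with the same chromosomes outside, up to the last peak of any list (Python 3.11.15, scipy 1.17.1). Sub-clusters joined UBF centres within 100 kb. Overlap code was tested on simulated data. No test between lists was made. Printed by position are the 10 widest UBF peaks of each line and Pol I peaks of HMEC, the ends of each sub-cluster, every UBF and Pol I peak of chromosomes 3 and 1, every NIH3T3 Pol I peak, and every UBF peak with an exceptional state or with Pol I. The limits of 10 kb and 1 kb, the width groups, the mirrored positions and the HMEC anchor were chosen after seeing the data. Histone classes and gene order were read by symbol from RefSeq, GRCm38.p6. Alternatives were a stricter overlap, membership by overlap, the wider 50% of each list and the inside of the sub-clusters.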

Additional observations from a re-analysis of the deposited data

How the results depend on the processing

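Of 59 alternatives to 15 results, 42 stayed within the main value's 95% interval (or within 1.5 times of a count) and 17 moved beyond it. Keeping the wider 50% of each list, a stand-in for a stricter threshold because the lists carry no score, left 29 NIH3T3 UBF, 69 HMLER UBF and 10 HMEC Pol I peaks in the clusters, moved the NIH3T3 median width to 1134 bp, and gave 5 sub-clusters. With it 100% of cluster UBF peaks met Pol II, 55.2% met Pol II and all 3 active marks, 0% met Pol I, 55.8% of HMEC UBF peaks met HMLER and 50% of HMEC Pol I peaks met UBF. It turned the order of inside and outside for the set of all active lists (65.8% outside) and for HMEC peaks in HMLER (61.9% outside). Requiring 50% of the peak to be covered gave 0% of UBF with Pol I, 25.5% of H3K4me3 with UBF and 20% of HMLER with HMEC UBF. The 0% was also found outside (0 of 436). The Pol I peak that met UBF was 124 bp wide and its UBF peak 827 bp, so 50% could not be reached. Inside the sub-clusters 51.7% of H3K4me3 and 77.2% of Pol II peaks met UBF, and 66.7% of HMLER peaks met HMEC. A gap of 50 kb gave 6 sub-clusters. Membership by overlap moved none of the results to which it applies.

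No paired analysis was possible because each antibody and line has 1 list, and for the same reason no list was left out in turn. The unknown depth bears most on peaks called absent from a list.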
